A study of Chlamydomonas reinhardtii with 18 samples.

Results

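IRT1 (Cre12.g530400) and IRT2 (Cre12.g530350) are 2 neighbouring genes of the unicellular green alga Chlamydomonas reinhardtii that the annotation in the deposited table describes as iron-responsive transporters of the ZIP family. They were found as the rows whose gene name or synonyms hold these symbols, and they are 2 of 17741 genes in the table, which also gives them the synonyms ZIP11 (IRT1) and ZIP10 (IRT2). Polyadenylated RNA came from strain CC-4532, kept in light on TAP, a medium with acetate as carbon source. Mid-logarithmic cells were pelleted, freed of their medium by washing with TAP that lacked Fe-EDTA, and resuspended in the same iron-free medium. The 9 sampling points were pre-wash, post-wash and 7 times between 5 and 240 min of iron deprivation, with 2 replicate samples at each, and the labels do not say whether replicates were separate cultures. The pre-wash samples are the cells before the wash, although their medium label also reads as lacking Fe-EDTA, and the sources used here do not give the iron content of that medium. All later samples share the wash, the fresh medium and the absence of added iron. A control transferred to iron-replete medium is not among the 18 samples, so effects of the transfer and of the loss of iron cannot be told apart.

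ZIP proteins, named after the ZRT and IRT transporters of yeast and plants, are membrane proteins that carry zinc, iron and other divalent metal ions into the cytoplasm. In Arabidopsis, IRT1 takes up ferrous iron at the root surface after a reductase has converted ferric iron to it. In Chlamydomonas the best described high-affinity route uses the ferric-chelate reductase FRE1, the multicopper ferroxidase FOX1 and the permease FTR1, with the periplasmic proteins FEA1 and FEA2. The measurements below are of transcripts, and transport was not measured.

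The unit of all levels is FPKM, fragments of transcript scaled by transcript length and by library size, so that levels of different genes can be set side by side. At each point the table gives a gene 1 FPKM value that combines the replicates. No value therefore has a replicate error, no test was possible, and differences are given by size. A gene is counted as higher or lower when it differs by 2-fold or more on the log2(FPKM + 1) scale, among 12580 genes with 1 FPKM or more in at least 2 columns. Both genes are among these 12580. The number of genes at 1 FPKM or more ran from 11224 at 15 min to 11869 at 120 min, and library depth is unknown.

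IRT1 was below 0.1 FPKM around the wash and among the more abundant transcripts at 240 min. It was listed at 0.0922 FPKM before the wash and 0.0663 FPKM after it, then at 0.209 FPKM at 5 min, 0.408 FPKM at 10 min and 0.892 FPKM at 15 min. The 30 min sample had 3.55 FPKM and the 60 min sample 27.1 FPKM, followed by 116 FPKM at 120 min and 379 FPKM at 240 min. Only the pre-wash and post-wash values break an otherwise unbroken order, in which each sampling point lies above the one before it. Of all 12580 genes, 0.397% were higher at each of the 7 steps from post-wash to 240 min, 50 genes in all, and IRT1 was one of them. Ordered by level among the 12580 genes, IRT1 was in place 7497 at 30 min and in place 247 at 240 min. RNA came from bulk cells, so a higher level in every cell and a larger number of cells with the transcript cannot be told apart.

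The ratio of FPKM for IRT1 was 5714 for 240 min over post-wash and 4110 for 240 min over pre-wash. With the pseudocount these became log2 differences of 8.48 and 8.44, because the pseudocount of 1 FPKM is far above the starting level. The plain ratios rest on starting values below 0.1 FPKM, whose precision is unknown. IRT1 first passed 2-fold on the log2(FPKM + 1) scale at 30 min, at 2.09 against post-wash, where 8.92% of all genes were higher, and at 2.06 against pre-wash, where 5.53% were. It stayed past 2-fold against post-wash at 60 min (4.72) and 120 min (6.78), beside 7.41% and 4.35% of all genes. With a pseudocount of 0.1 it passed 2-fold at 10 min against either column. Under that setting 785 of the 12580 genes were 2-fold or more higher at 10 min than post-wash, and 1300 were higher than pre-wash. At 15 min the difference from post-wash was 0.83 on the log2(FPKM + 1) scale. The time of first passing thus depends on how values below 1 FPKM are treated.

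Computed from plain FPKM without the pseudocount, the doubling times of IRT1 were shorter in the first 60 min than later. Taken as a constant rate between neighbouring samples, 1 doubling took 3.01 min between post-wash and 5 min, from values below 1 FPKM. It took 5.19 min between 5 and 10 min, 4.44 min between 10 and 15 min and 7.52 min between 15 and 30 min. These intervals also start below 1 FPKM, so how the doubling times compare with one another up to 30 min is uncertain. The doubling time was 10.2 min between 30 and 60 min, 28.6 min between 60 and 120 min and 70.3 min between 120 and 240 min. The level had not levelled off by the last sample, which was 3.26-fold above the sample at 120 min. At 60 min IRT1 stood at 7.16% and at 120 min at 30.6% of its level at 240 min.

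**Figure D1:**
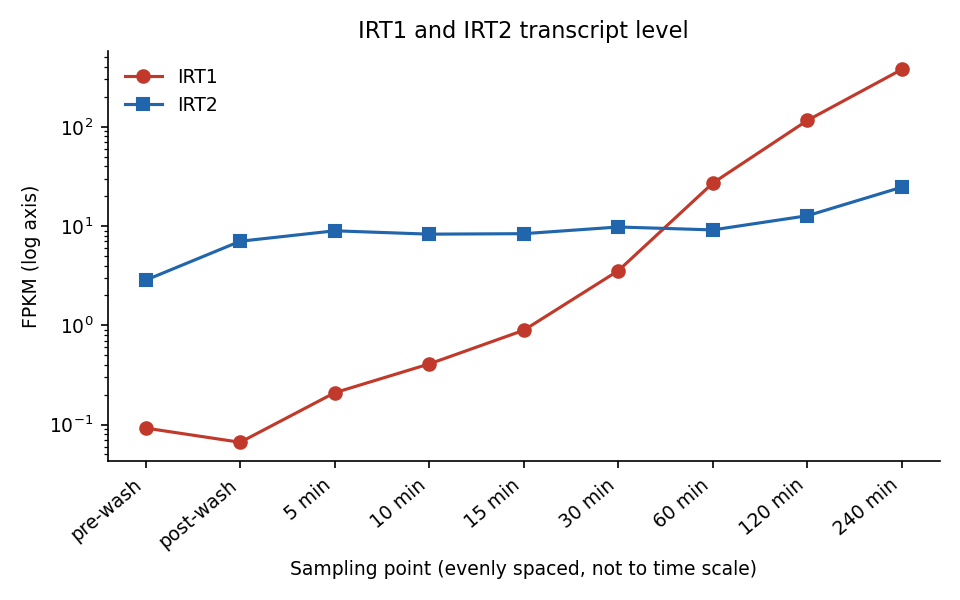
FPKM (log axis) of IRT1 (circles) and IRT2 (squares) at the 9 sampling points, 1 value for both replicates each and therefore no error bars. IRT1 climbs from 0.0663 FPKM post-wash to 379 FPKM at 240 min and crosses IRT2 between 30 and 60 min, while IRT2 stays between 7.03 and 12.7 FPKM from post-wash to 120 min.

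IRT2 followed another course, with its differences at the wash and at the end. It was at 2.85 FPKM before the wash, 7.03 FPKM after it, 8.96 FPKM at 5 min, 8.29 FPKM at 10 min and 8.38 FPKM at 15 min. The later values were 9.79 FPKM at 30 min, 9.15 FPKM at 60 min, 12.7 FPKM at 120 min and 24.7 FPKM at 240 min. The values from 5 to 60 min thus form a plateau, and the pre-wash value is the lowest and the 240 min value the highest of the course. IRT2 was higher at 5 of the 7 steps after the wash, the exceptions being 10 min against 5 min and 60 min against 30 min.

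At the wash, IRT2 was at 7.03 FPKM post-wash, against 2.85 FPKM pre-wash, a log2 difference of 1.06. In this comparison 8.47% of all genes were higher by 2-fold or more and 1.18% lower, and IRT2 was in place 947 of 12580 when genes were ordered by their difference. The IRT2 difference is only a little past the 2-fold limit. IRT1 was at 0.0663 FPKM post-wash, against 0.0922 FPKM pre-wash, both close to 0. The split of all genes at the wash, 1065 higher and 149 lower, became 847 and 261 with quantile-normalized values. That scaling shifted the all-gene median by -0.11 on the log2 scale and left IRT2 at 1.03.

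Against the same post-wash column, IRT2 was 1.81-fold higher at 120 min and 3.51-fold higher at 240 min (log2 differences of 0.77 and 1.68), so it passed 2-fold only in the last sample. Against pre-wash it was past 2-fold in each later sample, with log2 differences between 1.27 (10 min) and 2.74 (240 min). The shares of all genes 2-fold or more higher than pre-wash were, from the 5 min to the 240 min sample in order of time, 8.78%, 7.44%, 7.2%, 5.53%, 4.05%, 2.33% and 4.38%. The time at which IRT2 first passed 2-fold thus depends on the starting column, and differences that share a starting column share its error.

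With no replicate error, the steps were set beside the robust SD of the differences of all genes between neighbouring columns, which ran from 0.168 (15 against 10 min) to 0.435 (post-wash against pre-wash) on the log2 scale, real changes included. Within the IRT2 plateau, the steps to 10, 15, 30 and 60 min were -0.10, 0.01, 0.20 and -0.09, each within the spread of its own pair of columns, so the order of these levels is not established. The step to 5 min, 0.31, was about the size of its spread (0.310). The step to 120 min was 0.43 with a spread of 0.388, and the step to 240 min was 0.90 with a spread of 0.279. For IRT1 the step to 5 min, 0.18, was below its spread of 0.310. Each IRT1 step from 10 min on exceeded the spread, with 0.22 for 10 min, 0.43 for 15 min and 1.27 for 30 min. The steps to 10 and 15 min lie between values below 1 FPKM, whose precision is unknown, so the spread of all genes does not establish them. The later IRT1 steps were 2.63 for 60 min, 2.06 for 120 min and 1.70 for 240 min. The steps from 30 min on were past 2-fold, as were 0.548% of all genes at the step to 30 min, 0.803% at that to 60 min, 1.87% at that to 120 min and 0.795% at that to 240 min. IRT1 was in place 2 of all genes by the size of its step to 60 min and in place 6 at the step to 240 min.

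The balance between the neighbours turned over during the course. IRT2 was 30.9-fold above IRT1 before the wash, 106-fold after it and 2.76-fold at 30 min. IRT1 was 2.97-fold above IRT2 at 60 min, 9.13-fold at 120 min and 15.4-fold at 240 min. The crossing lies between the samples of 30 and 60 min, when IRT1 was at 3.55 and 27.1 FPKM and IRT2 at 9.79 and 9.15 FPKM. Over the 9 columns the Pearson correlation of their log2(FPKM + 1) values was 0.79. Both had their highest value at 240 min, as did 19.6% of all genes.

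Set against all genes, IRT1 stood far outside the bulk and IRT2 nearer to its edge. At 240 min against post-wash, 6.48% of all genes were 2-fold or more higher and 12.3% lower, and the median log2 difference of all genes was -0.03 (0.05 under quantile normalization). By the size of this difference IRT1 was in place 2 and IRT2 in place 204 of 12580. Against pre-wash 4.38% of all genes were higher at 240 min, and IRT1 was in place 3 and IRT2 in place 46. The higher and lower genes at 240 min against post-wash, 815 and 1549, became 1083 and 1325 under quantile normalization, and IRT1 and IRT2 stayed past 2-fold, at 8.62 and 1.93.

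**Figure D2:**
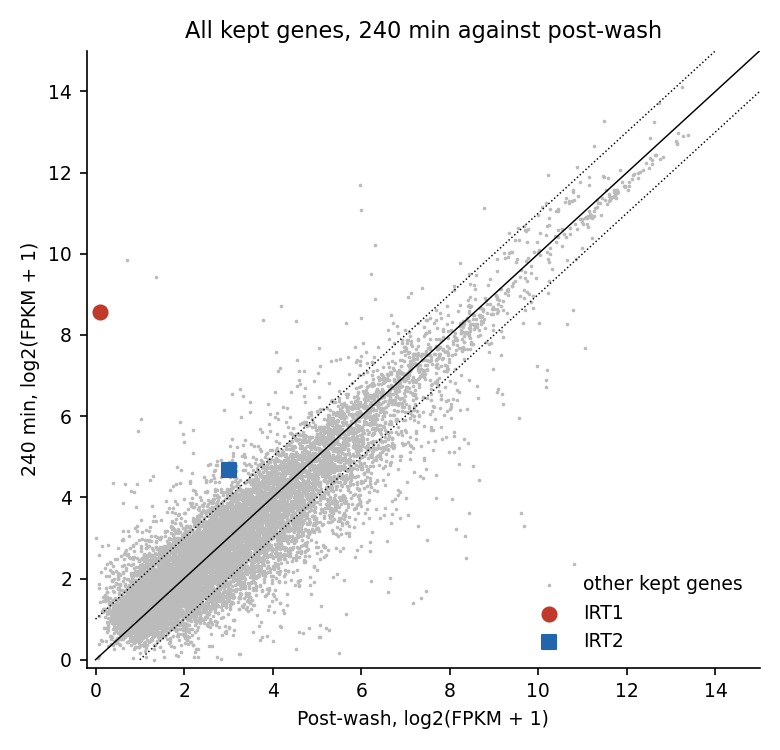
Each of the 12580 genes by its level at 240 min (vertical axis) and post-wash (horizontal axis), both as log2(FPKM + 1), with the line of equal levels and dotted lines at 2-fold. IRT1 (circle) lies at the left edge, at 379 FPKM at 240 min and 0.0663 FPKM post-wash. Of the 9 plotted genes at or below that post-wash level, IRT1 included, the next highest at 240 min is at 7.04 FPKM. Genes that failed the limit on low values are not plotted, and a gene this low post-wash passes that limit only through its other columns. IRT2 (square) lies above the upper dotted line among other genes.

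The ZIP family list held 14 genes found by symbol or by product, of which 12 passed the limit on low values. ZIP14 (at most 0.525 FPKM) and ZRT3 (at most 0.106 FPKM) did not, and 5 listed symbols were matched to no row. In the summed FPKM of all 14 genes, IRT1 made up 0.0713% post-wash, when it was the lowest of the 14. Its share was 1.77% at 30 min and 18.2% at 60 min, then 51.5% at 120 min and 76.4% at 240 min. It was the highest of the 14 at 120 and 240 min. IRT2 held between 3.54% (10 min) and 7.57% (post-wash) of the sum, and was in place 2 of the 14 at 240 min. The other 12 genes together were at 85.9 FPKM post-wash, 226 FPKM at 10 min and 92.4 FPKM at 240 min, so the sum of 496 FPKM for the family at 240 min was mostly IRT1.

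**Figure D3:**
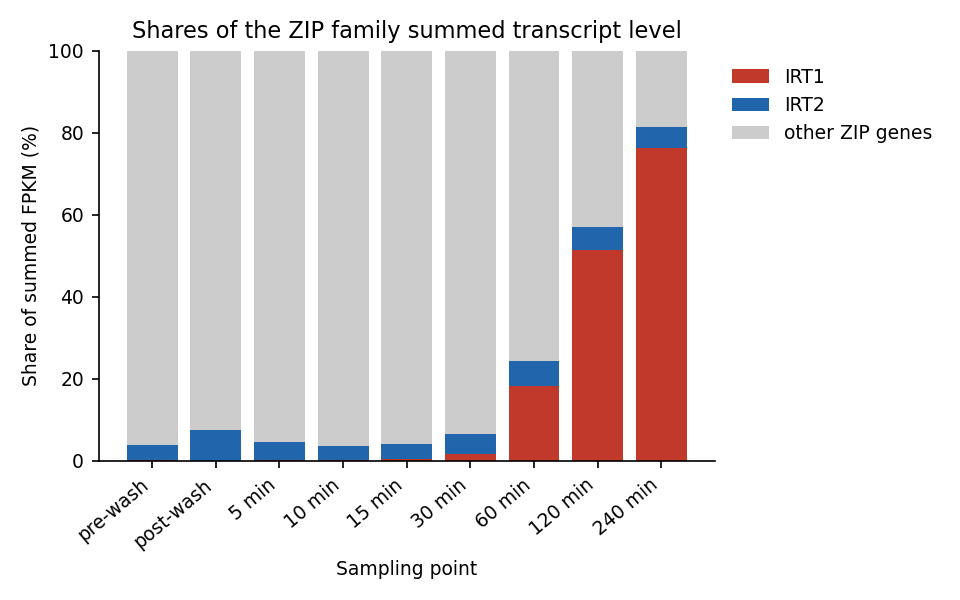
Share (%) of the summed FPKM of 14 ZIP family genes held by IRT1, IRT2 and the other 12 genes at each sampling point. IRT1 is barely visible up to 15 min and makes up 51.5% at 120 min and 76.4% at 240 min, while the IRT2 share stays between 3.54% and 7.57%.

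At 240 min 3 of the 12 ZIP genes were 2-fold or more higher than post-wash and 1 was lower, beside 6.48% and 12.3% of all genes, with a median log2 difference of 0.18 beside -0.03 for all genes. The members past 2-fold were IRT1, IRT2 and ZIP3, annotated as a zinc/iron transporter, and the lower one was ZRT2, a zinc-responsive permease. ZIP3 (Cre03.g189550) was at 20.4 FPKM at 240 min, against 5.10 FPKM post-wash and 5.71 FPKM pre-wash. ZIP3 thus ended near IRT2 at 24.7 FPKM, from a similar level, but without the IRT2 difference at the wash. Over the 9 columns its Pearson's r was 0.97 with IRT1 and 0.81 with IRT2. ZRT2 was at 15.1 FPKM at 240 min, against 32.8 FPKM post-wash and 12.2 FPKM pre-wash. Without IRT1 and IRT2, 1 of the remaining 10 genes was 2-fold or more higher and 1 lower, and their median was 0.04. The higher count of the family thus came mostly from the IRT genes themselves.

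The zinc-responsive members had an earlier course than IRT1. At 15 min 4 of the 12 ZIP genes were 2-fold or more higher than post-wash, against 5.15% of all genes, and neither IRT gene was among the 4. ZRT1 was at 13.0 FPKM at 30 min and at 0.651 FPKM at 240 min, with 1.06 FPKM post-wash. ZRT5 was at 72.9 FPKM at 15 min and at 20.6 FPKM at 240 min, with 15.4 FPKM post-wash. ZRT2 had its highest value, 88.9 FPKM, at 10 min. The symbol ZRT4 stands on more than 1 gene, and the zinc-responsive entry of that symbol, Cre01.g066187, was highest at 60 min (38.2 FPKM) and at 16.4 FPKM at 240 min. The ZRT4 entry Cre06.g299600 was highest at 30 min (7.10 FPKM, against 3.05 FPKM post-wash). ZIP1 was highest at 10 min (11.3 FPKM, against 5.72 FPKM post-wash), so an early highest value was not confined to the ZRT genes. ZIP4 stayed low throughout, with 0.699 FPKM post-wash and 1.34 FPKM at 120 min, but had its highest value at 240 min, not early. That value was 2.15-fold above post-wash by plain FPKM, a log2 difference of 0.56 with the pseudocount of 1 FPKM. Over the 9 columns the Pearson's r of ZIP4 was 0.78 with IRT1 and 0.45 with IRT2. The number of ZIP genes 2-fold or more higher at 240 min than post-wash went from 3 to 4 with a pseudocount of 0.1.

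**Figure D4:**
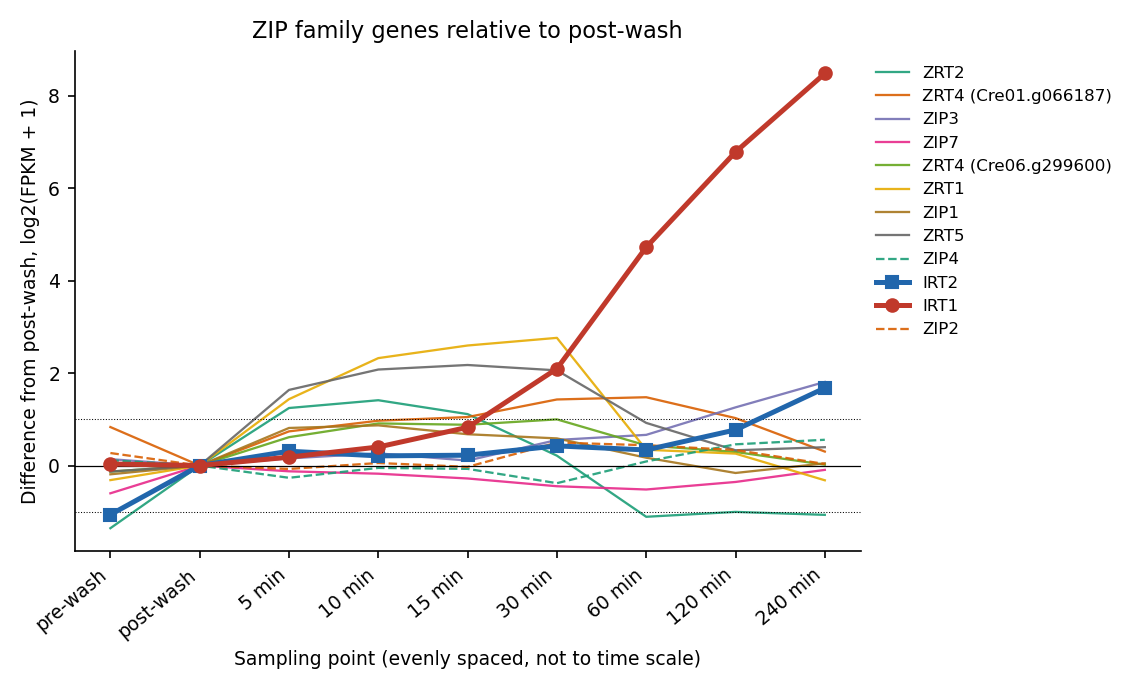
Difference from post-wash on the log2(FPKM + 1) scale for the 12 ZIP family genes that passed the limit on low values, with dotted lines at 2-fold. IRT1 (circles) ends at 8.48 and IRT2 (squares) at 1.68 at 240 min, while ZRT1 and ZRT5 are highest at 30 and 15 min and are back within 2-fold by 240 min.

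IRT1 and IRT2 were then placed beside the other genes of an iron assimilation list, which also holds CGLD27 and MSD3. Because the list was chosen with earlier results of these data known, its counts are descriptive and test nothing. The list had 10 measured genes, and all 10 were 2-fold or more higher at 240 min than post-wash, beside 6.48% of all genes, with a median log2 difference of 2.73. Without IRT1 and IRT2 the 8 others also had a median of 2.73. At 30 min 7 of the 10 were already 2-fold or more higher than post-wash, IRT1 included, beside 8.92% of all genes. At 60 and at 120 min 8 were, beside 7.41% and 4.35% of all genes. MSD3 was 2-fold or more lower than post-wash at 30 and 60 min, as were 10.1% and 14.4% of all genes. The symbol NRAMP4 of this list was matched to no row. By this difference IRT1 (8.48) came second to FRE1 (9.12), followed by FEA2 (5.09) and FTR1 (3.26), and IRT2 (1.68) was the smallest of the 10, below FEA1 (1.73) and FOX1 (1.87). CGLD27, a conserved protein of unknown function, had 2.86, the manganese superoxide dismutase gene MSD3 2.60 and TEF22, the neighbour of FEA1, 2.57. Against pre-wash IRT2 had 2.74 and FOX1, at 1.43, was the smallest. All of these differences share the 240 min column and, for each set, its starting column.

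In time, IRT1 was among the slowest members to approach its last value. At 60 min it stood at 7.16% of its level at 240 min, whereas FRE1 stood at 16.7%, FEA2 at 31.9%, FTR1 at 58.5% and FOX1 at 85.6%. MSD3, at 4.83%, was lower still, and its course differed, with values under post-wash until 60 min. IRT2 stood at 37.1%. IRT1, FEA2 and FTR1 were the 3 genes of the list that were higher at each of the 7 steps after the wash, as were 0.397% of all genes. FRE1, the reductase, was at 0.645 FPKM post-wash, 0.548 FPKM at 5 min, 12.2 FPKM at 30 min and 913 FPKM at 240 min, so that FRE1 and IRT1 were both under 1 FPKM post-wash. In level at 240 min, IRT1 at 379 FPKM lay between TEF22 (470 FPKM) above and CGLD27 (80.4 FPKM) below it. FEA1 (3930 FPKM) was the highest and IRT2 (24.7 FPKM) the lowest.

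**Figure D5:**
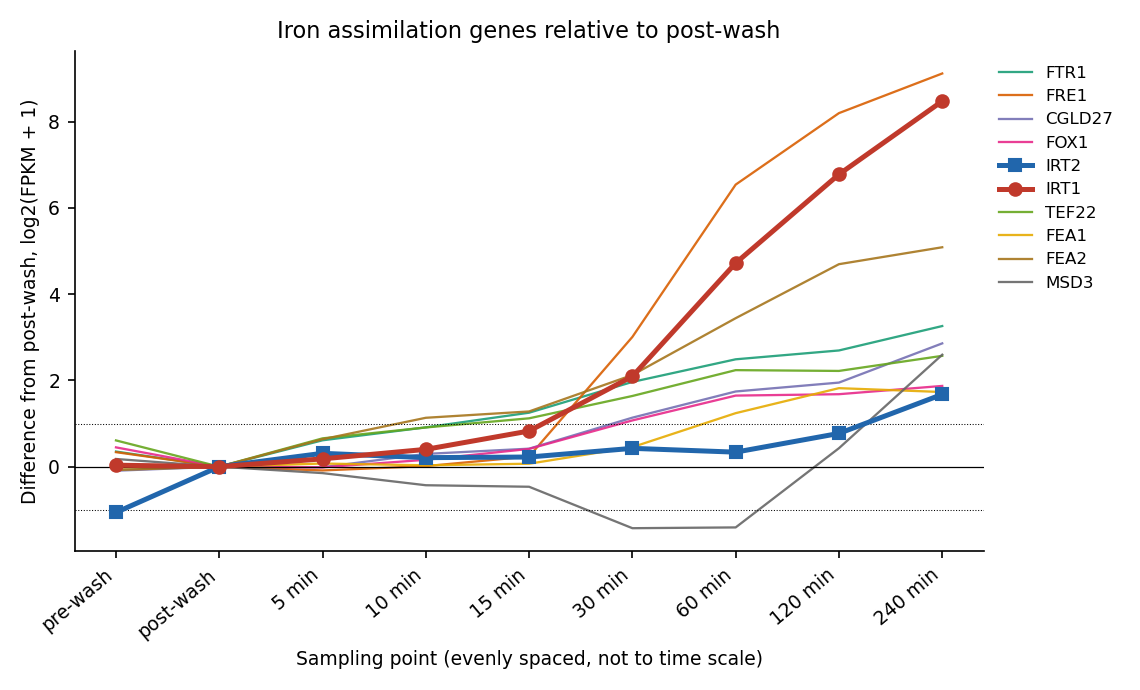
Difference from post-wash on the log2(FPKM + 1) scale for the 10 measured genes of the iron assimilation list, with dotted lines at 2-fold. The list was chosen with earlier results of these data known. At 240 min all 10 are above the upper dotted line, FRE1 at 9.12 and IRT1 (circles) at 8.48 on top and IRT2 (squares) lowest at 1.68.

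The courses most like that of IRT1 were sought by Pearson's r over the 9 columns, among 1240 other genes whose log2(FPKM + 1) values spanned at least 2 units. The columns are successive points of a time course, so genes that climb late are alike in this measure. The genes with a symbol and the highest r were MDAR1 (0.994), annotated as a pyridine nucleotide-disulphide oxidoreductase, LCI6 (0.990), a low-CO2 inducible protein, FAO13 (0.988), FRE1 (0.987) and CGL113 (0.985). Another 3 genes without a symbol lay among the first 8. MDAR1 was at 15.9 FPKM post-wash, 30.6 FPKM at 30 min, 78.2 FPKM at 60 min and 190 FPKM at 240 min. LCI6 was at 17.0 FPKM post-wash and 144 FPKM at 240 min. FRE1 was the only iron assimilation gene among these 5, and IRT2 was in place 148. Close below the fifth were CGLD27 (0.981) and FEA2 (0.979), while FEA1 (0.983) and ZIP3 (0.973) had too small a span to be compared. The other iron assimilation genes had an r between 0.534 (MSD3) and 0.941 (FTR1). With a pseudocount of 0.1 the first 5 were FEA2, CAH1, CGLD27, CVL2 and FAO13, sharing 1 gene with the 5 named first. When the 240 min column was left out, 4 of the 5 named first remained.

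For IRT2 the genes with a symbol and the highest r were the chloroplast DnaJ-like protein genes CDJ3 (0.986) and CDJ5 (0.950), then CAX5 (0.877), the chloroplast envelope protein gene CCP1 (0.869) and the small GTPase gene RJL1 (0.862). There were 10 genes without a symbol among the first 15. CDJ3 was at 8.91 FPKM pre-wash, 22.6 FPKM post-wash, 31.8 FPKM at 5 min, 42.0 FPKM at 60 min and 167 FPKM at 240 min, with the wash difference and the late one that IRT2 has. CDJ5 was at 17.0 FPKM pre-wash, 31.5 FPKM post-wash, 48.1 FPKM at 60 min and 132 FPKM at 240 min. IRT1 was in place 47. CDJ3 was first under each other setting tried, tied with CGL113 by Spearman's rho, and with the 240 min column left out CDJ3, CCP1 and CDJ5 remained. CCP1 has a near-identical copy, CCP2, so its value is uncertain.

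IRT2 and IRT1 lie side by side in the RefSeq gene table of assembly Chlamydomonas_reinhardtii_v5.5, with no overlap between their gene models or with the genes beside them. The genes next to the pair differed less between 240 min and post-wash. On the IRT2 side, FKB16-3 (Cre12.g530300), a peptidyl-prolyl isomerase of the FKBP type, was at 145 FPKM at 240 min, against 136 FPKM post-wash and 109 FPKM pre-wash. The gene beyond it, Cre12.g530250, was at 3.83 FPKM at 240 min and 1.85 FPKM post-wash, a plain ratio of 2.06 but a log2 difference of 0.76 with the pseudocount, with its highest value, 7.46 FPKM, at 30 min. On the IRT1 side, Cre12.g530450 was at 1.12 FPKM at 240 min, against 0.647 FPKM post-wash, and Cre12.g530500 at 12.0 FPKM, against 8.24 FPKM. None of the 4 was 2-fold or more higher or lower at 240 min on the log2(FPKM + 1) scale, against either post-wash or pre-wash. The same held for most genes, since 18.8% of all genes differed either way against post-wash and 9.32% against pre-wash.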

How the data were processed

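Polyadenylated RNA of 18 samples, 2 at each of 9 sampling points, was sequenced on an Illumina instrument, per the labels' protocols. The authors deposited 1 table of FPKM with gene identifiers of annotation v5.6, per the file headers. The submitters' processing notes name STAR 2.4.1 (an aligner) and Cuffdiff 2.0.2 (which estimates FPKM), with no role or order. Genome build, scaling between libraries and use of strand are not given in the sources used here. Every column name matches both replicates of a point and carries no replicate number, so it was taken as a combined value. The planned limma fits were therefore not run. A further 9 columns match none of the 18 samples and were left out.

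Values were used as deposited, with log2(FPKM + 1) for differences, 1 FPKM in at least 2 columns as the filter, and 2-fold as the limit for counts. Computations used Python 3.11.15, pandas 2.3.3, numpy 2.4.6 and scipy 1.17.1, and the counting and correlation steps were checked on simulated data. Identifiers matched the RefSeq table in 17738 of 17741 cases. Named genes are IRT1 and IRT2, members of 3 gene lists (all past 2-fold at 240 min against post-wash and up to 4 others with the largest differences, other points being read for these genes), the 5 genes with a symbol most like each IRT gene, and 2 neighbours on each side. Genes entering only under alternative settings are named for comparison, and ZIP14 and ZRT3 as members below the filter. ZIP1 and the ZRT4 entry Cre06.g299600 are named for their early highest values. The members, lists and tests were chosen with earlier results of these data known.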

Additional observations from a re-analysis of the deposited data

How the results depend on the processing

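No paired analysis was possible because each deposited column combines both replicates, and the replicate block, leaving out each replicate and any test could not be run for the same reason. Depth is unknown, which limits the low IRT1 values most. Median-of-ratios scaling moved no difference by more than the spread used (0.168). With a pseudocount of 0.1 the IRT1 difference at 240 min was 11.15 against post-wash and 10.95 against pre-wash, and IRT2 was at 3.07 for 240 min and 1.27 for post-wash, both against pre-wash. Quantile normalization put IRT2 at 240 min at 1.93 against post-wash and 2.96 against pre-wash. IRT2 kept its side of 2-fold in 15 of 15 comparisons under each of these 3 settings, and IRT1 did so except at 10 and 15 min with the pseudocount of 0.1. Counts over all genes moved more. Genes lower at the wash numbered 149, but 554 with a pseudocount of 0.1 and 261 under quantile normalization. At 240 min against pre-wash, 837 were higher and 945 lower with the pseudocount of 0.1 (551 and 621 as reported). Against post-wash 1480 were higher with that pseudocount and 530 with 5 FPKM required in at least 2 columns (815 as reported). By Spearman's rho, where 9 genes tied with IRT1 at 1, the first 5 genes shared 1 with those given for IRT1 and 2 for IRT2, and without a minimum span 2 and 1, the last setting and the omission of 240 min being chosen after seeing the data. The median difference of all genes turned under quantile normalization, to 0.05 at 240 min against post-wash (-0.03 as reported) and to -0.01 against pre-wash (0.01), and with median-of-ratios scaling it turned at the wash, to 0.0055 (-0.0039). No difference of IRT1 or IRT2 that was past 2-fold changed direction under the settings run. A change of pseudocount cannot turn a direction, so only the scalings could have done so.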

Other observations

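Metal transporters outside the ZIP family differed among themselves in their courses. Of 18 measured genes 17 passed the limit on low values, and at 240 min against post-wash 4 were 2-fold or more higher and 1 lower, beside 6.48% and 12.3% of all genes. The median of the 17 log2 differences was 0.08, beside -0.03 over all genes. MTP1, a cation efflux transporter annotated as a putative zinc transporter, was at 24.4 FPKM at 240 min, against 7.86 FPKM post-wash and 8.70 FPKM pre-wash. Over the 9 columns its Pearson's r was 0.94 with IRT1 and 0.85 with IRT2. The heavy metal ATPase gene CTP1 was at 33.0 FPKM at 240 min, against 13.6 FPKM post-wash and 11.1 FPKM pre-wash. CTP2 (14.5 FPKM at 240 min, against 5.37 FPKM post-wash and 11.6 FPKM pre-wash) and MTP2 (9.60 FPKM, against 4.20 FPKM and 8.36 FPKM) were past 2-fold only against post-wash. The copper transporter gene CTR2 was at 58.4 FPKM post-wash, against 8.35 FPKM pre-wash, and at 26.8 FPKM at 240 min. CTR1 was at 31.8 FPKM post-wash, against 12.1 FPKM pre-wash, and at 19.5 FPKM at 240 min. Of these genes CTR1 and CTR2 were, like IRT2, 2-fold or more higher at the wash, as were 8.47% of all genes. Unlike IRT2 they were 2-fold or more lower at 60 min (12.9 and 12.6 FPKM) than post-wash, as were 14.4% of all genes.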
